A study of Rattus norvegicus with 9 samples.

Results

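The NADPH oxidase and dual oxidase genes were followed in the bladder wall of female rats, as 9 members chosen by name: the dual oxidases Duox1 and Duox2, their maturation factors Duoxa1 and Duoxa2, the catalytic subunits Nox1, Nox4 and Cybb, and the subunits Cyba and Ncf1. The members were found through the transcript accession of each array probe, and each had 1 probe among 30367 non-control probes. Of the 9, 8 entered the test among 11049 genes, and Nox4 was too dim to do so. They were chosen with their values in these group comparisons already known, so those values are given as a description, with no test of their own.

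Bladder RNA was hybridised in 1 colour to 9 Agilent arrays, 3 per group, all at 3 weeks. The groups were partial bladder outlet obstruction (pBOO) treated with tolterodine, pBOO alone, and a sham operation in which the urethra was left untied. For pBOO the proximal urethra of an anaesthetised rat was ligated around an inserted catheter. Tolterodine is an antagonist of muscarinic acetylcholine receptors. The labels give no strain, age, dose or start of treatment. They state that 5 specimens per group were examined, but not whether an array carries 1 animal or a pool, so p-values here measure the spread between arrays. The letters for pBOO and sham in the treatment protocol and in the array codes run opposite ways. The titles were followed throughout, and an exchange of the 2 names would turn every pBOO and sham statement round.

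Enzymes of this family pass electrons from NADPH across a membrane to oxygen and release superoxide or hydrogen peroxide. Dual oxidases sit at the surface of epithelia, make hydrogen peroxide for defence and for hormone synthesis in the thyroid, and reach the surface only with their maturation factors. The phagocyte oxidase is a membrane pair, CYBB with CYBA, that is switched on when cytosolic subunits, among them those encoded by Ncf1 and Ncf4, and a Rac protein join it.

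A level here is the log2 of the processed spot intensity minus the 75th percentile of that array, so 0 is the upper quartile of the array's spots and each unit is a doubling. Arrays had 72.1% to 80.1% of their non-control spots well above background, upper quartile intensities of 523 to 1441 and no saturated spot, and their number limits the precision. Scan times fall into 3 sets. The first held pBOO + tolterodine arrays 1 and 2 with sham arrays 2 and 3, the second held the 3 pBOO arrays with sham array 1, and the last held pBOO + tolterodine array 3 alone. No set held both pBOO + tolterodine and pBOO arrays, so the difference between these groups and scan set cannot be told apart within a set and is linked only through the sham arrays. In bulk RNA, fewer cells of a type and less RNA per cell cannot be told apart.

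Duox2 and Duoxa2 were the members that differed most, both nearly lost from the pBOO arrays and both present at similar levels on the pBOO + tolterodine and sham arrays. Duox2, the inducible dual oxidase of gut, airway and thyroid epithelium (probe for NM_024141), had levels of 2.06, 1.93 and 2.02 on the pBOO + tolterodine arrays, -4.65, -4.55 and -4.51 on the pBOO arrays, and 2.78, 1.56 and 2.07 on the sham arrays. All 3 pBOO arrays lay far below the other 6, while the pBOO + tolterodine arrays lay inside the sham range. In intensity this was 2125 to 4115 on pBOO + tolterodine arrays, 41.7 to 57.3 on pBOO arrays and 2410 to 5199 on sham arrays, and the spot was well above background on all 9. Duox2 was 104-fold lower in pBOO than in sham, a log2 difference of -6.71 (SE 0.26). The difference was -7.35 within the second scan set, where the only sham array was sham array 1, the highest of its group. Against pBOO, the pBOO + tolterodine group was 6.58 higher (SE 0.26), a 95.5-fold difference, and against sham it differed by -0.13 (SE 0.26), or by 0.19 within the first scan set.

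Duoxa2, which carries DUOX2 out of the endoplasmic reticulum (probe for NM_001191965), followed the same pattern. Its levels were 1.50, 1.50 and 1.62 on the pBOO + tolterodine arrays, -6.45, -6.34 and -5.89 on the pBOO arrays and 2.47, 1.23 and 1.65 on the sham arrays. On none of the 3 pBOO arrays was the spot well above background, with intensities of 12.8 to 16.5 there. The pBOO level is therefore not firmly measured. For each pBOO array, the higher of its own spot and the dimmest spot well above background was taken. The mean of these was set against the mean of the brighter group. On that basis the pBOO level of Duoxa2 lay 215-fold under the sham level, and Duoxa2 was 182-fold higher in pBOO + tolterodine than in pBOO. These folds are not minima, because on pBOO array 3 Duoxa2 lay above that dimmest spot (-6.11) without being well above background. With normexp, described below, the log2 differences were smaller, at -5.18 and 4.95. The measured means were 1.54 ± 0.07 for pBOO + tolterodine, -6.22 ± 0.29 for pBOO and 1.78 ± 0.63 for sham (SD, n = 3 each). Between pBOO + tolterodine and sham the difference was -0.24 (SE 0.29).

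The pair was highest on sham array 1 and lowest among the sham arrays on sham array 2, for both genes. The SD of Duox2 over the sham arrays was 0.62, against 0.07 over the pBOO + tolterodine arrays and 0.07 over the pBOO arrays. Background correction set the size of the pBOO difference but not its direction. With normexp, which models background and signal together and pulls dim spots up by an offset, the pBOO minus sham difference was -5.40 for Duox2 and -5.18 for Duoxa2.

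**Figure D1:**
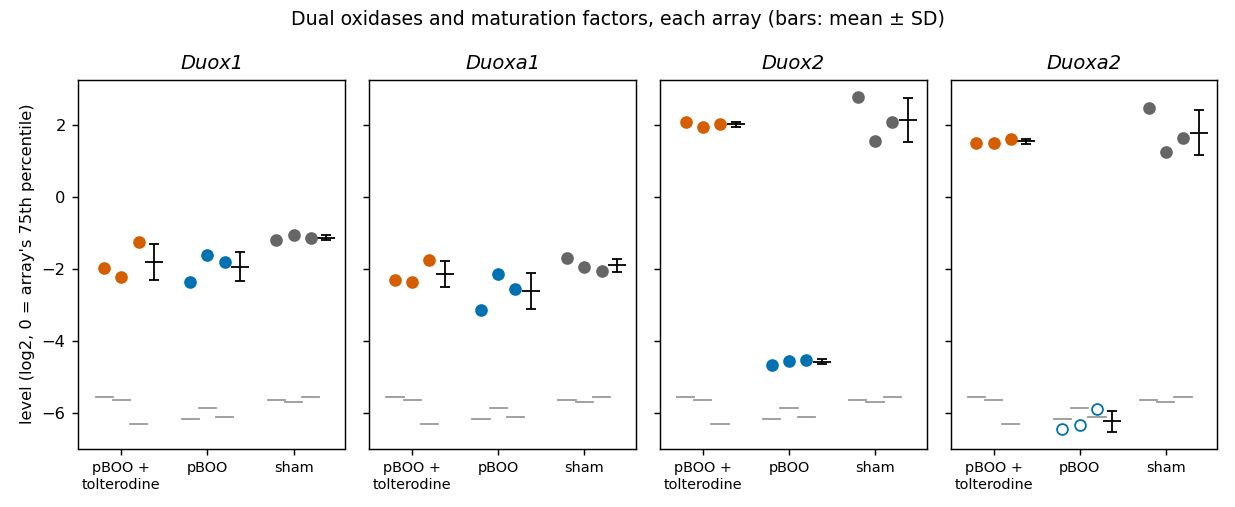
Level of each dual oxidase and maturation factor on every array, on a log2 scale where 0 is the array's 75th percentile, for pBOO + tolterodine, pBOO and sham. Filled circles are spots well above background, open circles are not, short grey lines mark the dimmest spot well above background on that array, and black bars are the mean ± SD; Duox2 and Duoxa2 fall to -4.5 and below on the pBOO arrays alone.

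Duox1 and Duoxa1, the other dual oxidase and its own maturation factor, did not share that pattern. Duox1 (probe for NM_153739) had levels of -1.96, -2.22 and -1.25 on the pBOO + tolterodine arrays, -2.37, -1.62 and -1.80 on the pBOO arrays and -1.19, -1.06 and -1.13 on the sham arrays. Both obstructed groups lay below the sham arrays and overlapped each other. It was lower in pBOO than in sham by a log2 difference of -0.80 (SE 0.27), and the pBOO + tolterodine group differed by 0.12 (SE 0.27) from pBOO and by -0.68 (SE 0.27) from sham. Without any 1 array, the pBOO minus sham difference lay between -0.96 and -0.58.

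Duoxa1 (probe for NM_001107767) had levels of -2.32, -2.36 and -1.74 on the pBOO + tolterodine arrays, -3.14, -2.15 and -2.57 on the pBOO arrays and -1.70, -1.95 and -2.04 on the sham arrays. The pBOO arrays lay below the sham arrays, and the pBOO + tolterodine arrays overlapped both. The differences were -0.72 for pBOO minus sham, 0.48 for pBOO + tolterodine minus pBOO and -0.24 for pBOO + tolterodine minus sham (SE 0.26 each).

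The 4 genes are neighbours on rat chromosome 3, in the order Duox2, Duoxa2, Duoxa1, Duox1 in RefSeq's GRCr8 annotation, and each oxidase and its maturation factor are known to be transcribed away from each other from a shared stretch. The annotated span of Duoxa2 begins inside the Duox2 promoter window, and that of Duox1 begins inside the Duoxa1 window, although the table takes a start farther inside Duox1 for that gene's own window. The windows are shown because one spans the near ends of the pair that was nearly lost in pBOO and the other spans those of the pair that was not. Each is the RefSeq GRCr8 sequence from 250 bases before to 50 bases after the start taken for that gene, 5′ to 3′ on the gene's own strand. The starts taken for Duox2 and Duoxa1 also lie inside those genes' annotated spans, whose 5′ ends are at 129698886 and 129714110. The Duox2 window is chr3:129698704-129699003 and the Duoxa1 window is chr3:129713957-129714256, both on the minus strand. Capitals mark matches to the 8 motifs searched.
Duox2: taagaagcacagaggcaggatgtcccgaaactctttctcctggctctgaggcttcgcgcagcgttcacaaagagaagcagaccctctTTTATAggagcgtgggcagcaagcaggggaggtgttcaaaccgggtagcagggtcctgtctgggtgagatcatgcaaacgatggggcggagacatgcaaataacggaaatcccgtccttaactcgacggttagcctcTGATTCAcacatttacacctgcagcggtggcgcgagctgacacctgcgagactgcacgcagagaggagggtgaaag
Duoxa1: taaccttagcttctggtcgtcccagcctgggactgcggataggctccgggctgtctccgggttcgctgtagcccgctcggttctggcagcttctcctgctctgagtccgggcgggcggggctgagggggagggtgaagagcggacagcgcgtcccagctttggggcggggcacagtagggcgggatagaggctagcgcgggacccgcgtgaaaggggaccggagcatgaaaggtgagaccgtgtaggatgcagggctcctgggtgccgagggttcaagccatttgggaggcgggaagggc

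The motifs were searched on both strands. They were GGGNNNNNCC for NF-kB, TTCNNNGAA for STAT factors and GAAANNGAAA for interferon regulatory factors. To these were added AACCNGTT for GRHL factors and TGACNNNGC for the antioxidant response element. The short ones were TGANTCA for AP-1, a factor of Fos and Jun proteins. It took any middle base and is looser than the AP-1 site itself, so a match need not be that site. The ETS form bound by ELF3 was searched as GGAAGTG. The TATA box was searched as TATAAA. The Duox2 window held TGATTCA, a form of TGANTCA, which 7.33% of 33469 rat promoter windows hold. It lay 26 bases before the start taken, which is inside the annotated Duox2 span. The window also held TATAAA on the opposite strand 163 bases before the start taken, a motif found in 14.2% of windows. That match lies in the gap between the annotated spans of Duox2 and Duoxa2. None of the 8 motifs was found in the Duoxa1 window, which says only that these letters are not in these bases. Of the 9 members, 8 have a window in the RefSeq table.

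Genes further out were read by position, from both ends of the cluster. Sord, sorbitol dehydrogenase, lies next to Duox2 and averaged 0.28 ± 0.25 on pBOO + tolterodine arrays, -1.72 ± 0.03 on pBOO arrays and 0.35 ± 0.38 on sham arrays (SD, n = 3 each). It fell in pBOO against sham (-2.07, limma adjusted p = 0.000115) and rose in pBOO + tolterodine against pBOO (2.00, limma adjusted p = 0.000106). Slc28a2, a nucleoside transporter beyond Duox1, also fell in pBOO against sham (-1.03, limma adjusted p = 0.00118) and was higher in pBOO + tolterodine than in pBOO (1.87, limma adjusted p = 4.87e-05). Slc28a2 was also higher in pBOO + tolterodine than in sham (0.84, limma adjusted p = 0.00701), where Sord differed by -0.07. Trim69, farther out beyond Sord and well above background on 1 sham array only, differed by 0.17 between pBOO and sham and by 0.99 between pBOO + tolterodine and pBOO.

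**Figure D2:**
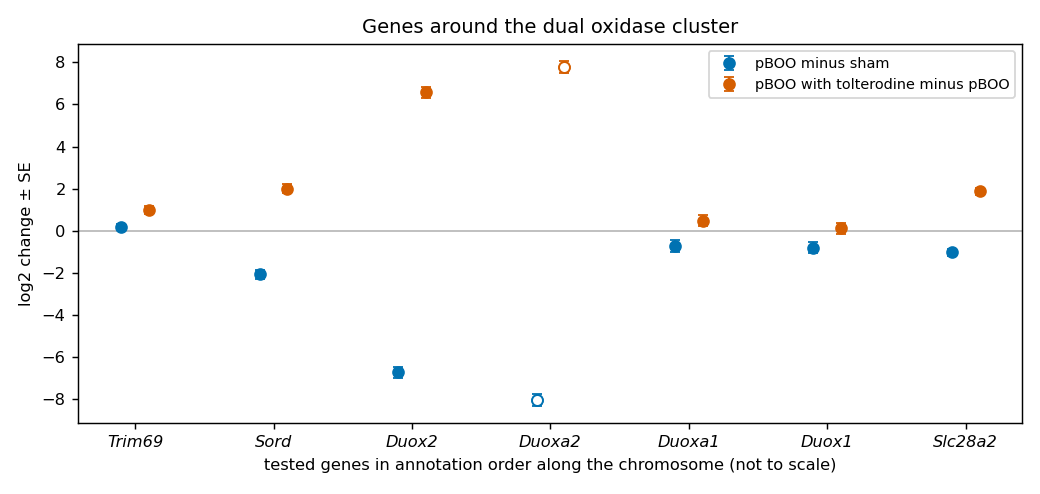
log2 change ± SE of the tested genes in chromosomal order around the dual oxidase cluster, for pBOO minus sham (blue) and pBOO + tolterodine minus pBOO (orange). The Duoxa2 points are open because its pBOO spots were not well above background; Duox2 and Duoxa2 stand out from Sord at -2.07 and 2.00 on one side and Duoxa1 at -0.72 and 0.48 on the other.

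Within an array, the Duox2 level minus the Duoxa2 level was 0.57, 0.43 and 0.40 on the pBOO + tolterodine arrays, 1.80, 1.79 and 1.38 on the pBOO arrays and 0.31, 0.32 and 0.42 on the sham arrays. The 2 probes thus kept almost the same distance wherever both were bright. On the pBOO arrays the distance is bounded by the Duoxa2 spot at background.

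Over the 9 arrays, Duoxa2 was the gene with the second highest Pearson correlation with Duox2 (r = 0.999) among 10105 others with a value on every array. The closest was Vnn3, a vanin (r = 1.00 to 2 decimals), and the next were Il1b, a proinflammatory cytokine (0.999), Mmp7, a secreted metalloprotease of epithelia (0.997), and Il1a (0.997). The 9 points fall into 3 pBOO arrays and the rest, so a coefficient this high says mainly that a gene is low on the same 3 arrays. Mmp7, for one, had levels of 1.56, 1.48 and 1.95 on pBOO + tolterodine arrays, -4.60, -4.98 and -4.66 on pBOO arrays and 2.75, 1.72 and 2.05 on sham arrays. By the same measure Ncf1 ranked 392, Duoxa1 2288, Cybb 2410 and Duox1 3501 of 10105.

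The subunits of the phagocyte oxidase among the members, Cybb, Cyba and Ncf1, were all higher in pBOO + tolterodine than in pBOO. Cybb encodes gp91phox, its catalytic chain (probe for NM_023965), and had levels of -1.40, -1.08 and -1.60 on the pBOO + tolterodine arrays, -3.96, -3.19 and -3.39 on the pBOO arrays and -2.56, -3.23 and -3.09 on the sham arrays. The pBOO + tolterodine arrays stood above all 6 others, and the pBOO and sham arrays overlapped. Cybb was 2.15 higher (SE 0.25), or 4.44-fold, in pBOO + tolterodine than in pBOO, and 1.60 higher (SE 0.25), or 3.03-fold, than in sham. pBOO minus sham was -0.55 (SE 0.25), and -0.95 with scan set as a fixed block. With normexp, the first 2 differences were 1.48 and 1.03.

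Cyba encodes p22phox, the stabilising partner of CYBB and of several NOX proteins (probe for NM_024160), and was the brightest member. It had levels of 4.55 and 4.38 on pBOO + tolterodine arrays 1 and 2, 2.79, 2.58 and 2.72 on the pBOO arrays and 4.62, 3.81 and 4.04 on the sham arrays. The spot on pBOO + tolterodine array 3 carried an outlier or uniformity mark and was left out, so that group has n = 2 here. The pBOO arrays lay below all the others, and the other groups overlapped. Cyba was lower in pBOO than in sham (-1.46, SE 0.21) by 2.75-fold, 1.77 (SE 0.23) higher in pBOO + tolterodine than in pBOO, and differed by 0.31 (SE 0.23) between pBOO + tolterodine and sham. Within scan sets, pBOO minus sham was -1.92, against sham array 1 alone, the highest sham array here, and pBOO + tolterodine minus sham was 0.54.

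Ncf1 encodes p47phox, the cytosolic organiser that brings the complex together on activation (probe for NM_053734). Its levels were 1.34, 1.25 and 1.38 on the pBOO + tolterodine arrays, -0.03, -0.14 and -0.08 on the pBOO arrays and 1.05, 0.77 and 0.87 on the sham arrays. The 3 groups did not overlap, with pBOO + tolterodine highest and pBOO lowest. The differences were -0.98 for pBOO minus sham, 1.41 for pBOO + tolterodine minus pBOO and 0.43 for pBOO + tolterodine minus sham (SE 0.11 each). Within scan sets, pBOO minus sham was -1.13, again against sham array 1 alone, the highest sham array, and pBOO + tolterodine minus sham was 0.48.

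The promoter windows of Cybb, chrX:16065016-16065315 on the minus strand, and Ncf1, chr12:28121635-28121934 on the plus strand, are shown because both members were highest in pBOO + tolterodine. Capitals mark the same motifs, and the 2 windows share GAAANNGAAA, found in 3.92% of rat windows.
Cybb: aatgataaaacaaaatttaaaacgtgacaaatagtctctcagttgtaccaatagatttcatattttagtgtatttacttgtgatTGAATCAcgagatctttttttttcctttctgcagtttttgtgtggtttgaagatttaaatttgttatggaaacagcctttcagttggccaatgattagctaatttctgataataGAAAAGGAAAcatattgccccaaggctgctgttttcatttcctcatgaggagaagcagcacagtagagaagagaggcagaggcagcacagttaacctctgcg
Ncf1: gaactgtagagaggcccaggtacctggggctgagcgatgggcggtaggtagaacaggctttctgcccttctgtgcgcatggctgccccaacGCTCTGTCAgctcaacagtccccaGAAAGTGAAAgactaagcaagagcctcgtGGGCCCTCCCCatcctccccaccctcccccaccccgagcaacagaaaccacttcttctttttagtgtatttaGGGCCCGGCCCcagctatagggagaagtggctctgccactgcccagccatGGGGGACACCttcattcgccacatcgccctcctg

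In the Cybb window the matches were TGAATCA, a form of TGANTCA, 166 bases before the start and GAAAAGGAAA 52 bases before it. In the Ncf1 window GAAAGTGAAA lay 135 bases before the start and TGACNNNGC, held by 12.1% of windows, lay on the opposite strand 159 bases before it. The other Ncf1 capitals are matches to GGGNNNNNCC, some of them overlapping, which 47.3% of windows hold. A match is a description of the letters and not a site of binding.

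Nox1 and Nox4 were at or below the limit of measurement. Nox1, an oxidase of colon epithelium and vascular muscle (probe for NM_053683), had levels of -5.78, -5.76 and -4.81 on the pBOO + tolterodine arrays, -5.43, -6.19 and -6.45 on the pBOO arrays and -4.36, -5.70 and -5.51 on the sham arrays. It was well above background on 1 array of each group, so no fold is given. Nox4, an oxidase of kidney and mesenchymal cells that makes hydrogen peroxide without cytosolic activators (probe for NM_053524), was well above background on 0 of 9 arrays, with intensities of 2.96 to 7.84. That leaves its transcript not detectable with this probe, rather than absent.

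**Figure D3:**
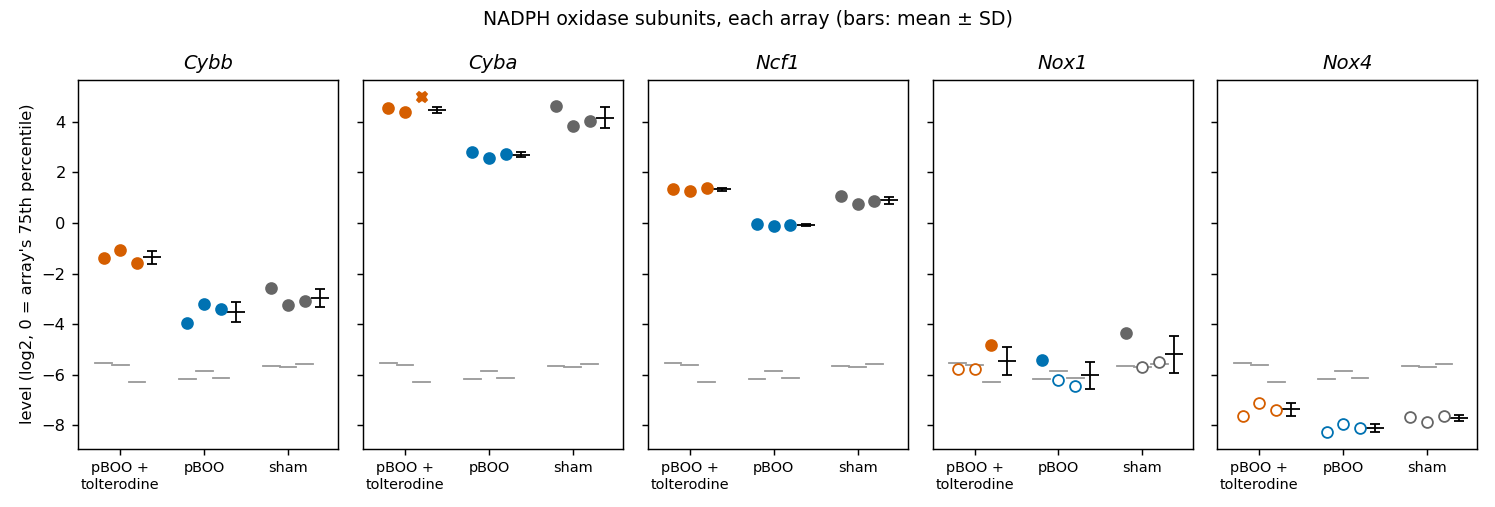
Level of the NADPH oxidase subunits on every array, on a log2 scale where 0 is the array's 75th percentile, for pBOO + tolterodine, pBOO and sham; symbols and bars are as for the dual oxidases, and the cross is the Cyba spot left out. Cybb is highest on pBOO + tolterodine arrays (-1.60 to -1.08), Cyba is lowest on pBOO arrays (2.58 to 2.79), and Nox4 lies below the background line on every array.

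Differences between the groups were common on these arrays, and the members' counts are set beside them. Between pBOO and sham, 5 of the 8 tested members passed the limma threshold (adjusted p under 0.05), all lower in pBOO, and 42.5% of all 11049 genes passed (21.7% lower). These members were Duox2, Duoxa2, Duox1, Cyba and Ncf1, and Duox1 dropped out under several other settings. Between pBOO + tolterodine and pBOO, 5 members passed, all higher, against 41.3% of all genes (26.0% higher). These were Duox2, Duoxa2, Cybb, Cyba and Ncf1. Between pBOO + tolterodine and sham, 2 members passed, Cybb and Ncf1, both higher, against 24.4% of all genes (17.8% higher and 6.59% lower). Ncf1 did not pass without any 1 of 5 arrays. With scan set as a fixed block, Cyba also passed, higher (0.54), and Duox1 passed, lower (-0.996). The median change of the tested members was -0.91, 1.59 and -0.19 in these 3 comparisons, beside -0.04, 0.11 and 0.09 for all genes. Groups did not overlap for 6, 5 and 3 of the 8 members in these comparisons, beside 55.7%, 58.7% and 43.1% of all genes. Because the members were chosen on these contrasts, nothing is read from the counts. The 3 comparisons share their arrays in pairs and are not independent.

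**Figure D4:**
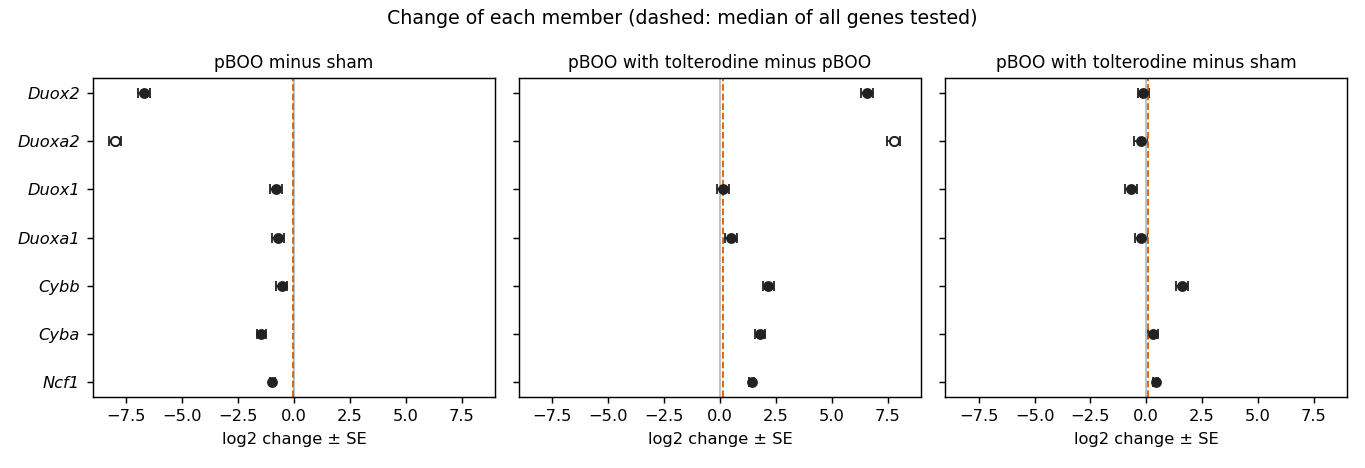
log2 change ± SE of 7 members in the 3 comparisons, with the median of all genes tested as a dashed line; Nox1 and Nox4 are left out as too dim. Duoxa2 is drawn open where its pBOO spots were not well above background, and Cybb is the member farthest above 0 in pBOO + tolterodine minus sham, at 1.60.

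The other genes of the oxidase complexes were read from a list of 14, of which 9 had a probe and were tested. Over all 11049 genes, 20.8% were higher and 21.7% lower in pBOO against sham. The shares were 26.0% and 15.3% for pBOO + tolterodine against pBOO, and 17.8% and 6.59% for pBOO + tolterodine against sham. The list counts here and below stand beside these shares and had no test of their own. Between pBOO and sham, 1 was higher and 3 were lower (median -0.16). Between pBOO + tolterodine and pBOO, 4 were higher and 1 was lower (median 0.69). Between pBOO + tolterodine and sham, 4 were higher and 0 were lower (median 0.53), though 2 were higher after median scaling of the arrays or with normexp, and 1 without sham array 3.

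Rac2, the Rac protein of blood cells that activates the phagocyte oxidase, had levels of 2.32, 2.28 and 2.52 on the pBOO + tolterodine arrays, -0.05, -0.11 and -0.13 on the pBOO arrays and 1.97, 1.29 and 1.45 on the sham arrays. The 3 groups did not overlap. It fell in pBOO against sham (-1.67, SE 0.17, limma adjusted p = 0.000162), rose in pBOO + tolterodine against pBOO (2.47, adjusted p = 1.83e-05) and was higher than in sham (0.80, adjusted p = 0.0119).

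Ncf4, which encodes the cytosolic subunit p40phox, had levels of -0.48, -0.53 and -0.40 on the pBOO + tolterodine arrays, -2.56, -2.30 and -2.36 on the pBOO arrays and -0.65, -0.94 and -0.77 on the sham arrays. The pBOO arrays stood well below the rest. It fell in pBOO against sham (-1.62, SE 0.12, limma adjusted p = 3.06e-05) and rose in pBOO + tolterodine against pBOO (1.94, adjusted p = 1.02e-05). Against sham the pBOO + tolterodine difference was 0.32 and did not pass (adjusted p = 0.0858).

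Noxa1, which encodes the activator of NOX1, was measured on 3 pBOO + tolterodine arrays (-1.51, -1.46 and -1.31), 2 pBOO arrays (-2.87 and -2.99) and 2 sham arrays (-2.08 and -1.84). It fell in pBOO against sham (-0.97, limma adjusted p = 0.00277) and rose in pBOO + tolterodine against pBOO (1.51, adjusted p = 0.000278) and against sham (0.53, adjusted p = 0.0352). Its enzyme partner Nox1 was near background on the same arrays.

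Prkcb, a protein kinase C that phosphorylates p47phox in phagocytes, moved the other way between pBOO and sham. It had levels of 0.69, 0.67 and 0.69 on the pBOO + tolterodine arrays, 2.37, 1.60 and 2.06 on the pBOO arrays and -0.66, -0.59 and -0.60 on the sham arrays. It rose in pBOO against sham (2.63, limma adjusted p = 2.12e-05), fell in pBOO + tolterodine against pBOO (-1.33, adjusted p = 0.000509) and stayed above sham (1.30, adjusted p = 0.00169).

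Rac1, the Rac protein of most cells, rose in pBOO + tolterodine against pBOO (0.69, limma adjusted p = 0.00762) and against sham (0.53, adjusted p = 0.0374), and differed by -0.16 between pBOO and sham. Cybc1, which encodes a chaperone of gp91phox, along with Prkcd, Sh3pxd2a and Nox3, did not pass in any comparison. Nox3 was well above background on 3 of 9 arrays, with 0 of them sham, and Sh3pxd2a on 7. For these dim genes, not passing says little.

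**Figure D5:**
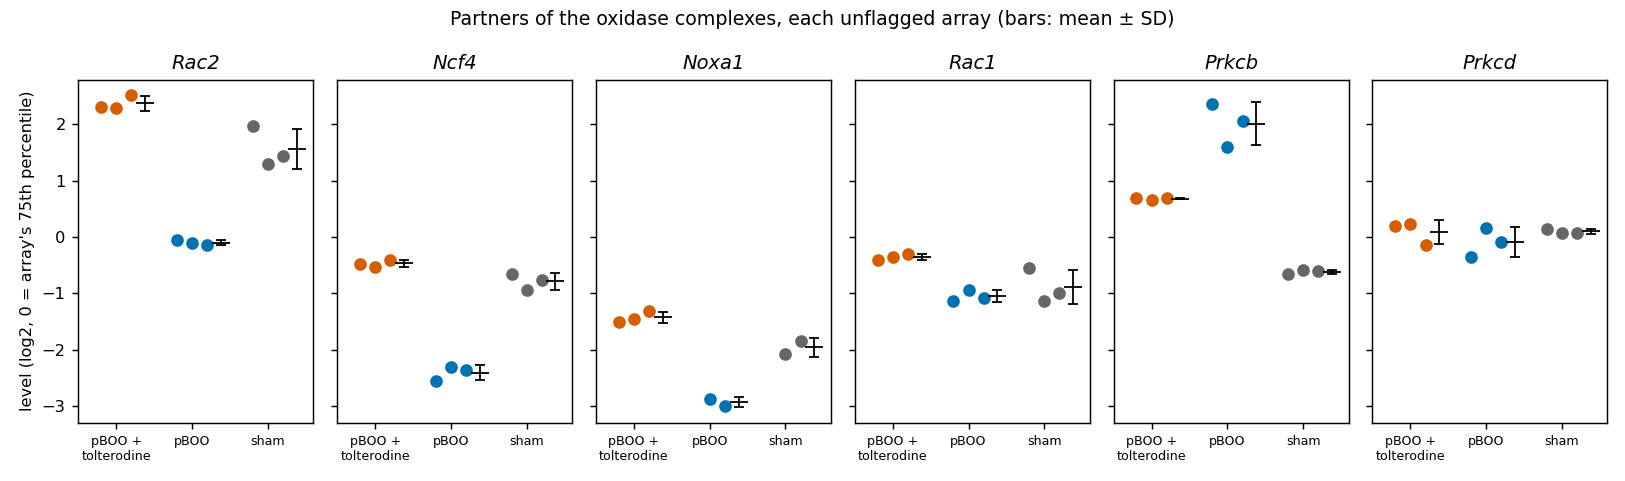
Levels of 6 partner genes of the oxidase complexes on every array with an unmarked spot, on a log2 scale where 0 is the array's 75th percentile, for pBOO + tolterodine, pBOO and sham, with bars at the mean ± SD. Rac2, Ncf4 and Noxa1 are lowest on the pBOO arrays, Prkcb is highest there (1.60 to 2.37), and Prkcd does not separate the groups.

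Enzymes that remove superoxide and hydrogen peroxide were a list of 21, of which 19 were tested. Between pBOO and sham, 7 fell and 3 rose (median -0.37); between pBOO + tolterodine and pBOO, 11 rose and 1 fell (median 0.67); and between pBOO + tolterodine and sham, 6 rose and 0 fell (median 0.28), with 10 rising when scan set was a fixed block. Gpx2, an epithelial glutathione peroxidase, averaged 3.14 ± 0.09 on 3 pBOO + tolterodine arrays, -0.80 ± 0.14 on 2 pBOO arrays and 1.41 ± 0.43 on 3 sham arrays (SD). Its rise of 3.94 in pBOO + tolterodine over pBOO had a limma adjusted p of 1.77e-05. Srxn1, sulfiredoxin, which restores oxidised peroxiredoxins, fell in pBOO against sham (-1.19) and rose in pBOO + tolterodine against pBOO (2.02, limma adjusted p = 1.02e-05). Sod3, the extracellular superoxide dismutase, rose in pBOO against sham (1.08) and fell in pBOO + tolterodine against pBOO (-0.95, limma adjusted p = 0.000496).

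Peroxidases, peroxide-conducting aquaporins and other oxidant sources were a list of 14 with 9 tested. Between pBOO and sham, 2 rose and 3 fell, and between pBOO + tolterodine and pBOO, 6 rose and 2 fell, with 2 rising when scan set was a fixed block. Nos2, the inducible nitric oxide synthase, fell in pBOO against sham (-1.10) and rose in pBOO + tolterodine against pBOO (1.75, limma adjusted p = 0.00113). Maoa, a mitochondrial amine oxidase that releases hydrogen peroxide, rose in pBOO against sham (1.64) and fell in pBOO + tolterodine against pBOO (-1.29, limma adjusted p = 0.00103). Aqp3, a membrane channel for water and hydrogen peroxide, fell in pBOO against sham (-1.19) and rose in pBOO + tolterodine against pBOO (0.74, limma adjusted p = 0.0161).

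Marker genes of the cell types that use these oxidases also differed between the groups, and their part in the members' values was not tested. Of 15 tested urothelial genes, 9 fell in pBOO against sham, and in pBOO + tolterodine against pBOO 7 rose and 1 fell. In pBOO + tolterodine against sham, 3 rose and 5 fell (median -0.56). Single arrays decided these counts. In pBOO against sham, 4 fell without pBOO array 1 or without sham array 3. Without any 1 array, 2 to 6 rose in pBOO + tolterodine against pBOO. Against sham, 1 to 3 rose and 2 to 7 fell in pBOO + tolterodine. Of the 15, 7 had a value on every array. Their mean level was 0.78 to 0.81 on pBOO + tolterodine arrays, 0.96 to 2.04 on pBOO arrays and 1.73 to 2.23 on sham arrays. Krt20, 1 of these 7, had levels of -4.02, -4.32 and -3.77 on the pBOO + tolterodine arrays. Its levels were 0.26, 1.49 and 1.05 on the pBOO arrays and -1.94, 1.31 and 1.05 on the sham arrays. This 1 gene pulls the pBOO + tolterodine mean down. With marked spots kept, which brings in the uroplakins Upk1a, Upk2 and Upk3a, the mean over 19 genes was 2.73 to 2.97 on pBOO + tolterodine arrays, 2.12 to 2.79 on pBOO arrays and 3.24 to 3.39 on sham arrays. Of the 19 with a probe, Cldn3, a tight junction protein, was well above background on no pBOO array. Krt7 (-1.81), Cdh1 (-1.05) and Krt18 (-0.96) were among the genes that fell in pBOO against sham. Krt7 and Cdh1 had values on 2 pBOO and 2 sham arrays, and Krt18 on 2 pBOO and 3 sham arrays. The levels of Krt20, and of the tested uroplakin Upk1b, overlapped between these groups.

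Of 11 tested genes of epithelial defence, 9 fell and 1 rose in pBOO against sham (median -1.65), 10 rose in pBOO + tolterodine against pBOO (median 1.75), and 3 rose in pBOO + tolterodine against sham (median 0.25). C3, the central complement protein, fell in pBOO against sham (-5.77, limma adjusted p = 8.15e-06) and rose in pBOO + tolterodine against pBOO (6.01). Lcn2, an iron-trapping antibacterial protein, fell in pBOO against sham (-2.24) and rose in pBOO + tolterodine against pBOO (3.43, limma adjusted p = 1.76e-06) and against sham (1.19).

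Of 15 tested macrophage genes, 11 fell in pBOO against sham, 14 rose in pBOO + tolterodine against pBOO and 11 rose in pBOO + tolterodine against sham, or 7 without pBOO + tolterodine array 1. Their mean level over 13 genes was 0.61 to 0.66 on pBOO + tolterodine arrays, -1.06 to -0.96 on pBOO arrays and -0.29 to 0.02 on sham arrays, and none of the 16 with a probe was at background in any whole group. The 5 genes most like Cybb over the 9 arrays were Arhgap9 (r = 0.995), Syk (0.994), Gnat1 (0.993), Ramp3 (0.990) and Alox5ap (0.989), as a description.

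Of 9 tested neutrophil genes, 7 fell in pBOO against sham, 9 rose in pBOO + tolterodine against pBOO (5 with normexp) and 4 rose in pBOO + tolterodine against sham. Their mean level was -2.16 to -2.09 on pBOO + tolterodine arrays, -5.06 to -4.54 on pBOO arrays and -3.05 to -2.70 on sham arrays. S100a9 led them, 4.58 higher in pBOO + tolterodine than in pBOO (limma adjusted p = 1.68e-06). The granule genes Mmp8 and Ngp were well above background on no array of any group. Of the tested genes, Fpr1, Cxcr2 and Csf3r were well above background on no pBOO array. Their pBOO levels, and the pBOO mean that includes them, are therefore bounds. Fpr1 entered the test only through the 3 pBOO + tolterodine arrays, so nothing is read from its rise. Lcn2 stands in both the neutrophil and the defence list.

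Smooth muscle genes ran opposite to most members. Of 9 tested, 8 rose in pBOO against sham (median 2.44) and 8 fell in pBOO + tolterodine against pBOO (median -1.86). Of 12 fibroblast and endothelial genes, 7 rose in pBOO against sham, and in pBOO + tolterodine against pBOO 1 rose and 4 fell. Tek, 1 of those 7, was well above background on the 3 pBOO arrays alone. It entered the test only through them, so nothing is read from its rise. Intestinal markers were read because Duox2 and Nox1 are genes of the gut epithelium: of 4 tested, 1 rose and 2 fell in pBOO against sham, 3 rose and 0 fell in pBOO + tolterodine against pBOO (median 1.26), and 3 rose and 0 fell in pBOO + tolterodine against sham (median 0.85). Lgals4, a galectin, was 3.95 higher in pBOO + tolterodine than in pBOO (limma adjusted p = 1.70e-06). Cdx2 and Fabp2 were at background in every group. Vil1, the gene that rose in pBOO against sham, was well above background on no sham array, so its differences from sham are differences from background.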

How the data were processed

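Each deposited file lists the spot intensities of 1 array. The authors' processed signal is, per the file headers, a background-corrected intensity without normalization between arrays, written by Feature Extraction 11.0.1.1. Version 9.1 is named in the submitters' processing notes. Here log2 of that signal minus the array's 75th percentile was used, spots marked as non-uniform or as population outliers were left out, and spots of a probe were averaged. Probes well above background on at least 3 of 9 arrays and unmarked on at least 2 arrays per group were kept, and the brightest stood for each gene. One limma 3.58.1 fit (R 4.3.3) over 9 arrays gave 3 contrasts for 11049 genes, with Benjamini-Hochberg adjustment and a threshold of 0.05, and was tested on simulated data.

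The members and lists were chosen with earlier results of these data known. Named genes were all members and partners, up to 4 genes with the largest called change per list and contrast, from which examples are given, and the 5 genes most alike to Duox2 and Cybb. Beyond these, neighbours of the cluster were named by position, and Krt18, Cdh1, Cdx2, Fabp2, Mmp8, Ngp and the uroplakins as defining markers. Some genes were named because they were at background in a whole group. The array design carries genome build rn4, so no array coordinates were printed. RefSeq GRCr8 gave gene order and promoter windows. Alternatives covered background correction, scaling, filters, scan set, replicate numbers, left-out arrays and exchanged group names.

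Replicate numbers were checked for pairing: deviations from the group means of same-numbered arrays correlated at -0.08 to 0.18, so the numbers were not taken to pair arrays.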

Additional observations from a re-analysis of the deposited data

How the results depend on the processing

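Exchanging the names pBOO and sham reversed the pBOO minus sham values to 6.71 (Duox2), 8.01 (Duoxa2), 1.46 (Cyba), 0.98 (Ncf1) and 0.80 (Duox1), and made pBOO + tolterodine minus pBOO -0.13 for Duox2 and -0.24 for Duoxa2. The exchange relabels the same fit, so its values follow from the main ones and are no check of them. It left 2693 genes and 2 members called in pBOO + tolterodine minus pBOO, and 4564 genes and 5 members in pBOO + tolterodine minus sham. Genes called with normexp were 3026 for pBOO minus sham, 3000 for pBOO + tolterodine minus pBOO and 961 (1 member) for pBOO + tolterodine minus sham, against 4693, 4564 and 2693. Within the second scan set, with fewer arrays, pBOO minus sham called 2907 genes. For pBOO + tolterodine minus sham, scan as a fixed block called 4486 genes and 4 members, scan as a random block 4279 genes, and the first scan set alone 5724 genes and 5 members. Scan as a random block called 8 members for pBOO minus sham. The cause of the moves other than those of the exchange was not tested.

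Leaving out each array in turn gave 3362 to 5055 genes and 3 to 6 members for pBOO minus sham, 3377 to 5212 genes and 4 to 5 members for pBOO + tolterodine minus pBOO, and 1380 to 3743 genes and 1 to 3 members for pBOO + tolterodine minus sham. The highest gene counts came without sham array 1 and the lowest without pBOO array 3 or, for the last, without sham array 3. Cyba could not be tested without pBOO + tolterodine array 1 or 2. The replicate block called 4349, 4226 and 2332 genes and 5, 5 and 2 members in the 3 comparisons, and no call of a member changed. Higher against lower calls were 2872 to 1692 for pBOO + tolterodine minus pBOO and 2493 to 2243 after quantile scaling; for pBOO + tolterodine minus sham they were 1965 to 728, and 1455 to 1460 after median scaling. Because the members were chosen on these contrasts, their calls describe the fit and test nothing. Duox1 lost its pBOO minus sham call with scan as a fixed block (-0.74) and without pBOO array 1 (-0.58). Cybb gained one with quantile scaling (-0.65) and with scan as a fixed (-0.95) or random (-0.78) block. Ncf1 lost its call over sham with median scaling (0.29), with normexp, and without pBOO + tolterodine array 1 or 2, pBOO array 3, or sham array 2 or 3. In pBOO + tolterodine minus pBOO, Duox2, Duoxa2, Cybb, Cyba and Ncf1 were higher in every setting that gave a value, except Duox2 and Duoxa2 with names exchanged, where Cyba (0.31) was no longer called.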
